A study of Mus musculus with 32 samples.

Results

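The genes described here are 8 Toll-like receptors (Tlr1, Tlr2, Tlr3, Tlr4, Tlr6, Tlr7, Tlr9 and Tlr13), the co-receptor Cd14 and the adaptor Myd88, 10 of the 22337 genes measured. They were taken by gene symbol, and all 10 were found in both expression tables. Toll-like receptors sense conserved microbial molecules and products of damaged cells. At the plasma membrane TLR2 pairs with TLR1 or TLR6 to bind lipopeptides and TLR4 binds lipopolysaccharide with help from CD14, whereas TLR3, TLR7, TLR9 and TLR13 sense nucleic acids inside endosomes. Every receptor in this set except TLR3 signals through MyD88 towards NF-kB and interferon regulatory factors. In the brain most of these genes are expressed mainly by microglia, and CD14, TLR2 and TLR4 can bind fibrillar amyloid-beta.

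RNA was measured in male 6-month-old mice on a C57BL/6J background by Smart-seq2 RNA-seq, a full-length cDNA method. 5xFAD mice, a model of familial Alzheimer's disease, carry transgenes driven by Thy1 sequence that is active mainly in neurons, and their WT littermates carry none. Light-treated 5xFAD mice received near-infrared light through the skull for 10 min, 3 times per week, over 4 weeks under isoflurane, and the WT and untreated 5xFAD mice were anesthetized under indoor light. Each hippocampal and meningeal library came from 1 mouse, with 4 WT, 4 untreated 5xFAD and 4 light-treated 5xFAD hippocampi, and with 4, 3 and 3 meninges. Meningeal lymphatic endothelial cells (mLECs) were sorted as CD45-negative cells positive for CD31 and PDPN, also in 4, 3 and 3 libraries, each from the meninges of 1 mouse. Light-treated WT mice were not analysed here, so the light comparison was made within the 5xFAD genotype.

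Levels are given as FPKM, fragments scaled to transcript length and sequencing depth. Expected counts summed to 13952824 to 23856475 per hippocampal library, 6601142 to 14708201 per meningeal library and 14231414 to 24207325 per mLEC library. Hippocampal Thy1 separated the genotypes as labelled, at 170 to 189 FPKM in WT and 407 to 622 FPKM in the 8 5xFAD libraries. The hippocampal library of untreated 5xFAD replicate 1 stood apart, with the highest summed level of 10 microglial markers (1481 FPKM, others of its group from 895 FPKM) and of 4 astrocyte markers (3843 FPKM). The meningeal libraries carried choroid plexus markers at a summed 16947 to 54055 FPKM, against 77.7 to 3417 FPKM in hippocampus. In mLECs, WT replicates 2 and 4 held 2 and 3 of 6 lymphatic markers at 1 FPKM or more, and comparisons of the tested members with WT are given with and without them.

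Tlr1 and Tlr6 lie next to each other on the minus strand of chromosome 5 (GRCm38, GENCODE vM21), at chr5:64924679-64933563 and chr5:64952031-64960097, and share part of their coding sequence exactly. The longest identical stretch is 229 bases, coding positions 1468 to 1696 of Tlr1 and 1507 to 1735 of Tlr6. It is shown because a read that falls wholly within it can come from either gene.
Tlr1 and Tlr6: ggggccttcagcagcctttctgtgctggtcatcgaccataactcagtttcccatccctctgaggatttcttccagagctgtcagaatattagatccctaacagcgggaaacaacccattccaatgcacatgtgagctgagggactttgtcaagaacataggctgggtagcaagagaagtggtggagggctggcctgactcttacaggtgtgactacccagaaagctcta
In all, 6 identical stretches of at least 50 bases covered 748 coding bases, and no other pair of these genes shared a run of 50 bases. Expected counts of the pair were fractional in 13 of 22 hippocampal and meningeal libraries, and their sum was whole, within 0.011, in 22 of 22. Their separate values are therefore uncertain, and their sum was tested as well.

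The remaining genes lie apart. Tlr2 is at chr3:83836272-83841767 (minus strand), Tlr3 at chr8:45395665-45411080 (minus), Tlr4 at chr4:66827584-66930284 (plus) and Tlr9 at chr9:106222598-106226883 (plus). Myd88 is also on chromosome 9, at chr9:119335934-119341411 (minus). Tlr7, at chrX:167304929-167330558 (minus), and Tlr13, at chrX:106143204-106160493 (plus), are X-linked. RefSeq promoters (GRCm38.p6, 250 bases before the transcript start and the first 30 bases after it) were at hand for 7 of the 10 genes, 9 promoters in all. The 5 below are shown because 4 belong to genes called higher in 5xFAD hippocampus and the last, Tlr3, is 1 of the members not called there. For Tlr1 and Tlr6, which have another promoter, the promoter with a match is shown, so a match in each printed sequence is partly a result of this choice. Capitals mark letters that match an NF-kB motif, a PU.1 core (GAGGAA) or an interferon regulatory factor (IRF) core (GAAA, any 2 bases, GAAA) on either strand.
Tlr2, chr3:83841579-83841858, minus strand: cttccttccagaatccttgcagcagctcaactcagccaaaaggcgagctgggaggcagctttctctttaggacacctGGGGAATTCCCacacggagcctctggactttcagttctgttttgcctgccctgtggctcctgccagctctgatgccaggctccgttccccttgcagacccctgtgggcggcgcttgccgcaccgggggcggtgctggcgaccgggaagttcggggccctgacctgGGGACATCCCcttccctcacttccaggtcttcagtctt
Tlr1, chr5:64933529-64933808, minus strand: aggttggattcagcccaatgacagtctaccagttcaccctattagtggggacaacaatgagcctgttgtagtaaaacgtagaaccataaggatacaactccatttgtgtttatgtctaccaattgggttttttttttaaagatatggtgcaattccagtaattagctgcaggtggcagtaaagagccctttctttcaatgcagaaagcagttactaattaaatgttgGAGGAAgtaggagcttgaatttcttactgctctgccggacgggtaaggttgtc
Tlr6, chr5:64959137-64959416, minus strand: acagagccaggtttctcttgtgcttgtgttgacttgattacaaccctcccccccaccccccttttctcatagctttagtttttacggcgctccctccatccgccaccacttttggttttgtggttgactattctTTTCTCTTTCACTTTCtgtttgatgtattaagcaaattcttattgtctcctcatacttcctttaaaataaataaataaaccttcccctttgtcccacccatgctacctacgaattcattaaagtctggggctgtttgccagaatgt
Tlr13, chrX:106143025-106143304, plus strand: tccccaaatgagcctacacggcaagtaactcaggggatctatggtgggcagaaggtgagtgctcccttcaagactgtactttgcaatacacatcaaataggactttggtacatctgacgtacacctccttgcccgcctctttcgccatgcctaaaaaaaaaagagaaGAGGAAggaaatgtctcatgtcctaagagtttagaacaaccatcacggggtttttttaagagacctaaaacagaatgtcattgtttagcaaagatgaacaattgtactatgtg
Tlr3, chr8:45410351-45410630, minus strand: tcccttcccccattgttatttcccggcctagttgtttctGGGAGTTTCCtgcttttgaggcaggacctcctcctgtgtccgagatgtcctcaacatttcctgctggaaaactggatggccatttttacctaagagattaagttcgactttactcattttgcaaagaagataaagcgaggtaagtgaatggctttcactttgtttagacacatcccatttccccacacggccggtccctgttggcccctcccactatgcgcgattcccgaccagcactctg
Counting the transcript start as 0, Tlr2 held NF-kB matches at -173 to -163, where overlapping matches ran together, and at -8 to 1. Tlr3 held an NF-kB match at -211 to -202, Tlr1 and Tlr13 a PU.1 core at -23 to -18 and at -83 to -78, and Tlr6 overlapping IRF cores at -116 to -101 on the minus strand. The other promoter of Tlr1 and that of Tlr6 held none. Tlr9 and Myd88, which were not called in 5xFAD hippocampus and are not shown, also held matches, Tlr9 a PU.1 core at -112 to -107 and at 12 to 17 and Myd88 an IRF core at -40 to -31. Over 32851 promoters, 8.46% held the NF-kB motif, 28.3% the PU.1 core and 3.44% the IRF core. Their window had 50 bases after the start, so it was not matched to the one shown here. A match describes letters only and was not tied to binding.

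To ask which receptors differed with genotype, untreated 5xFAD hippocampi were compared with WT littermates. Tlr2, Tlr1 and Cd14 rose most, by 7-fold or more, Tlr4, Tlr6, Tlr7 and Tlr13 rose as well, and Tlr3, Tlr9 and Myd88 did not pass the test. The test was edgeR's quasi-likelihood test on expected counts, run over the 12981 genes with at least 1 FPKM in at least 3 hippocampal libraries, and a call is an adjusted p below 0.05 over all of them. Of the 6 members tested, 4 rose (Cd14, Tlr2, Tlr7 and Tlr13, each by more than 2-fold), where 6.48% of all tested genes rose and 4.23% rose by at least 2-fold. Tlr2 and Tlr13 entered this test only through their 5xFAD libraries and Tlr7 partly so, which means that the count is not read against that background. Cd14, Tlr3 and Myd88 exceeded 1 FPKM in every hippocampal library.

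Tlr2, the shared partner of the lipopeptide receptors, was at 0.22, 0.47, 0.93 and 0.32 FPKM in WT, at 10.01, 3.87, 3.26 and 3.7 FPKM in untreated 5xFAD and at 2.09, 3.15, 4.1 and 3.93 FPKM in light-treated 5xFAD mice. Every 5xFAD library was above every WT library, and untreated replicate 1 was far above the others. The mean rose from 0.485 ± 0.314 (SD, n = 4) to 5.21 ± 3.21 FPKM (n = 4). The log2 fold change was 3.49 (SE 0.49, 11.2-fold, adjusted p = 0.000432), and 2.93 (adjusted p = 0.000522) without untreated replicate 1.

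Tlr1, which pairs with Tlr2 for triacylated lipopeptides, was at 0.14, 0.04, 0.17 and 0.15 FPKM in WT, at 1.19, 0.71, 0.74 and 1.13 FPKM in untreated 5xFAD and at 0.76, 0.61, 0.99 and 0.54 FPKM after light. Tlr6, the partner for diacylated lipopeptides, was at 0.15, 0.13, 0.08 and 0.1 FPKM in WT, at 0.48, 0.23, 0.56 and 0.37 FPKM in untreated 5xFAD and at 0.36, 0.46, 0.28 and 0.85 FPKM after light. The WT and 5xFAD ranges were apart for both genes, at levels below or near 1 FPKM. Neither gene reached the filter, so their tests come from the fit to all 20292 genes with no filter on low values, in which 4.47% of genes rose. There Tlr1 rose by 2.96 on the log2 scale (SE 0.42, 7.76-fold, adjusted p = 0.000273) and Tlr6 by 2.09 (SE 0.44, 4.25-fold, adjusted p = 0.00807). The summed counts of the pair, which do not depend on how shared reads were divided, rose by 2.65 (SE 0.26, adjusted p = 4.58e-05).

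Cd14, which hands lipopolysaccharide to TLR4 and also serves TLR2, lies on chromosome 18 and was the most abundant member in 5xFAD hippocampus. It was at 4.12, 2.68, 1.87 and 2.05 FPKM in WT, at 29.7, 16.47, 12.82 and 17.2 FPKM in untreated 5xFAD and at 8.1, 10.19, 11.23 and 13.24 FPKM in light-treated 5xFAD mice. The lowest 5xFAD library was above the highest WT library, and 3 of the 4 light-treated libraries were below all untreated 5xFAD libraries. Compared to WT littermates, untreated 5xFAD mice had 7.14-fold more Cd14 (log2 fold change 2.84, SE 0.30, adjusted p = 6.48e-05). Without replicate 1 the log2 fold change was 2.51 (adjusted p = 8.39e-05). Tlr4, the lipopolysaccharide receptor, was far lower, at 0.24, 0.51, 0.41 and 0.23 FPKM in WT, 1.19, 0.67, 1.11 and 0.94 FPKM in untreated 5xFAD and 0.39, 0.7, 0.77 and 0.47 FPKM after light. All untreated 5xFAD values exceeded all WT values, while the light-treated values overlapped both groups. With no filter on low values Tlr4 rose by 1.48 on the log2 scale (SE 0.34, 2.79-fold, adjusted p = 0.0149), a call that was lost without WT replicate 1 (1.33, adjusted p = 0.0601) or 4 (1.32, adjusted p = 0.0609).

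Among the endosomal receptors, Tlr13, which senses bacterial ribosomal RNA in mice, was at 0.98, 0.61, 0.66 and 0.78 FPKM in WT, at 3.47, 1.74, 1.58 and 1.95 FPKM in untreated 5xFAD and at 1.37, 1.7, 2.2 and 1.87 FPKM after light. Every 5xFAD library again lay above WT, and the log2 fold change of untreated 5xFAD mice was 1.55 (SE 0.28, 2.92-fold, adjusted p = 0.00314). Tlr7, a sensor of guanosine- and uridine-rich RNA, was at 1.73, 0.74, 1.57 and 0.57 FPKM in WT, at 3.59, 2.16, 1.92 and 2.24 FPKM in untreated 5xFAD and at 1.23, 1.28, 1.43 and 1.29 FPKM after light. Untreated 5xFAD mice were above both other groups, with a log2 fold change over WT of 1.36 (SE 0.23, 2.58-fold, adjusted p = 0.00178). Tlr9, the receptor for unmethylated CpG DNA, ranged from 0.06 to 0.48 FPKM over all 12 hippocampi and reached 1.21 (SE 0.51, adjusted p = 0.202) with no filter.

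Tlr3, the receptor for base-paired viral RNA that signals through TRIF and not MyD88, was at 3.49, 5.77, 5.41 and 3.63 FPKM in WT, at 5.87, 4.9, 7.16 and 4.82 FPKM in untreated 5xFAD and at 4.26, 4, 5.25 and 4.93 FPKM after light. It was the most abundant receptor of WT hippocampus, its groups overlapped, and its log2 fold change was 0.15 (95% confidence interval -0.16 to 0.47, adjusted p = 0.573). Myd88, the common adaptor, was at 3.62, 4.51, 4.02 and 4.3 FPKM in WT, at 9.87, 6.7, 4.34 and 5.83 FPKM in untreated 5xFAD and at 6.7, 4.73, 5.81 and 5.31 FPKM after light. Untreated replicate 3 lay within the WT range. The log2 fold change of 0.70 (SE 0.22, 1.62-fold) missed the threshold (adjusted p = 0.0725), and it was 0.41 (adjusted p = 0.187) without untreated replicate 1 and 0.85 (adjusted p = 0.0186) without untreated replicate 3. DESeq2 called it (0.69, adjusted p = 0.034).

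**Figure D1:**
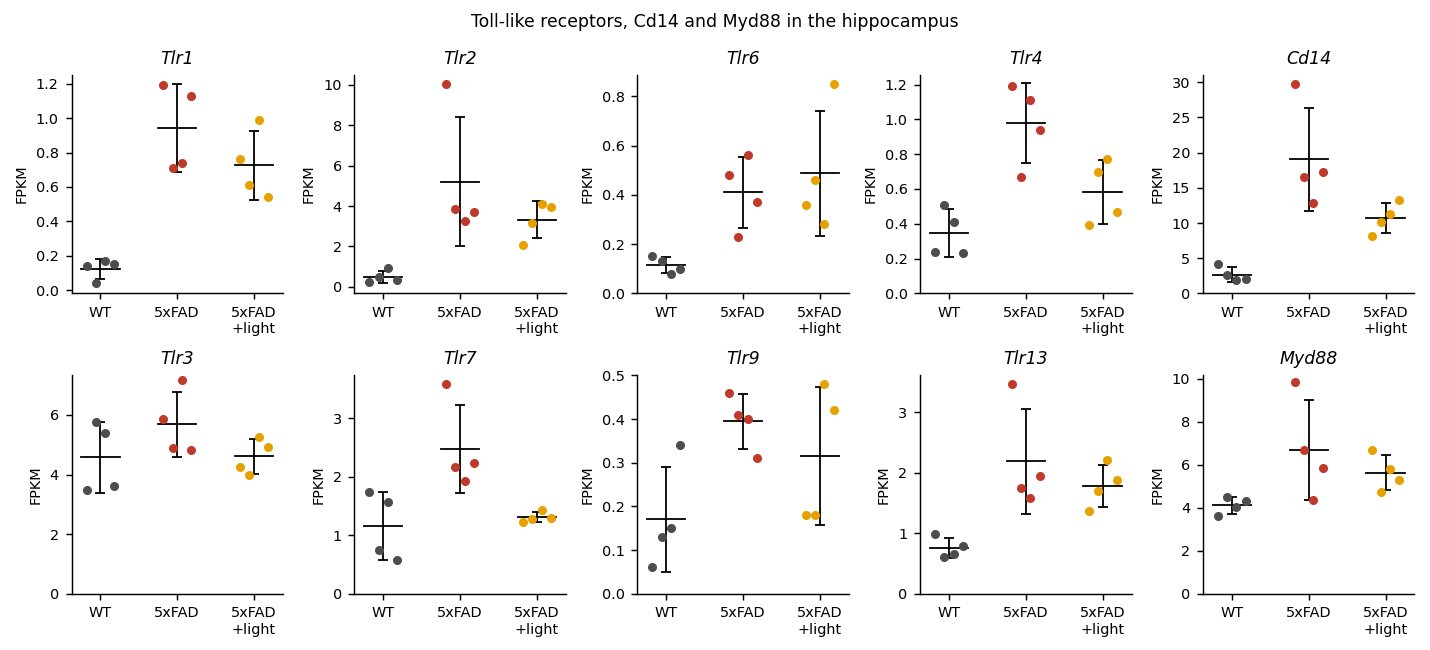
FPKM of the 10 genes in hippocampus, 1 panel per gene, with a point for each library and a black line for the mean ± SD in WT, 5xFAD and 5xFAD+light mice (n = 4 each). Cd14 runs from 1.87 to 4.12 FPKM in WT and from 12.82 to 29.7 FPKM in untreated 5xFAD mice, while the groups overlap for Tlr3.

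In FPKM, 7 of the 10 genes (Tlr1, Tlr2, Tlr4, Tlr6, Tlr7, Tlr13 and Cd14) had all untreated 5xFAD libraries above all WT libraries. Among the 6 past the filter there were 4, and 8.75% of all genes past the filter did so. Tlr2 and Tlr13 passed it only through their 5xFAD libraries, so this count is not read against that share either. The markers of several cell types moved in the same libraries. All 10 microglial markers rose (median log2 fold change 1.36, all tested genes 0.01), from a summed 337 to 387 FPKM in WT to 895 to 1481 FPKM in untreated 5xFAD and 730 to 1125 FPKM in light-treated 5xFAD mice, with no marker at 0. Monocyte and neutrophil markers rose in 2 of the 4 tested of 8, from 2.19 to 2.85 FPKM to 12.6 to 13.1 FPKM and 5.1 to 9.71 FPKM, with Ly6g at 0 in WT. Border-associated macrophage markers rose in 1 of the 2 tested of 6, and their sum was 3.3 to 5.11, 6.7 to 16.7 and 2.6 to 6.42 FPKM in the same order, with no marker at 0. Both leukocyte genes rose (Ptprc 5.27-fold, Itgam 1.82-fold), as did 2 of 4 astrocyte markers (Gfap 5.54-fold, Aqp4 1.84-fold) and 2 of 4 meningeal fibroblast markers (Col1a2 3.56-fold, Col1a1 2.01-fold). The astrocyte sum was 1270 to 1516, 1781 to 3843 and 1870 to 2448 FPKM in the same order, and the fibroblast sum 19.1 to 38.7, 18.9 to 97.6 and 5.22 to 18.8 FPKM. Of T cell markers 1 was tested of 4 and rose (Trbc2), and of lymphatic markers 1 of the 3 tested rose (Pdpn, 1.99-fold). No neuronal, oligodendrocyte, blood endothelial or choroid plexus marker was called. In bulk tissue, fewer cells of a type and less RNA per cell cannot be told apart, and the part of these cells in the receptor levels was not tested.

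The members were also set against the microglial marker sum in each library, as a percent of it. On this scale 88.6% of the genes past the filter had every untreated 5xFAD library below every WT library and 0.763% had every one above. Cd14 rose on it from 0.746 ± 0.241% in WT to 1.67 ± 0.25% in untreated 5xFAD mice, with no overlap. Tlr2 went from 0.138% to 0.442% and Tlr1 from 0.0349% to 0.0842%, also with no overlap. Tlr4, Tlr6, Tlr7, Tlr9 and Tlr13 overlapped WT, with Tlr13 at 0.212% and 0.191%. Tlr3 (1.30% to 0.532%) and Myd88 (1.17% to 0.590%) were lower in every untreated 5xFAD library than in any WT library, as most genes were.

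**Figure D2:**
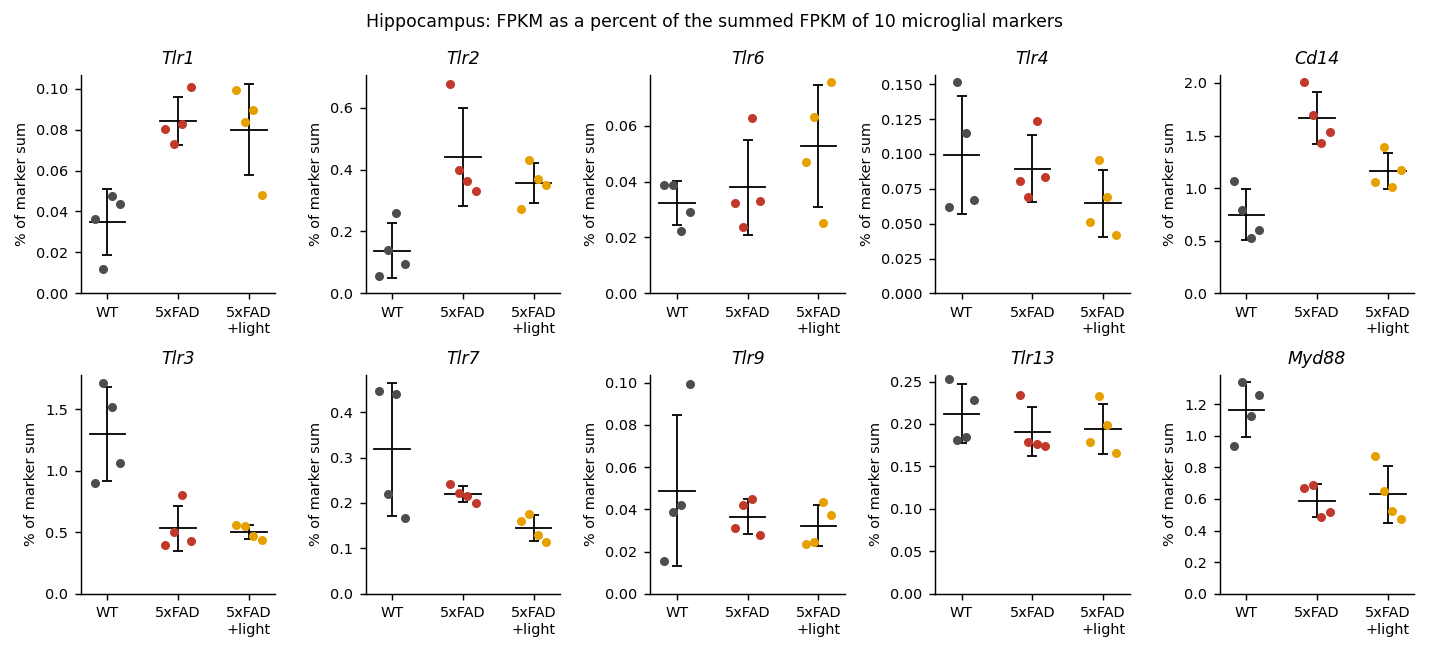
FPKM of each gene in hippocampus as a percent of the summed FPKM of 10 microglial markers in the same library, with a point for each library and a black line for the mean ± SD (n = 4 per group). Cd14 stands at 0.746% in WT, 1.67% in untreated and 1.16% in light-treated 5xFAD mice on average, whereas Tlr13 overlaps in all groups.

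Light-treated 5xFAD hippocampi were then compared with untreated 5xFAD hippocampi. None of the 6 members tested was called by edgeR, where 0.270% of genes rose and 0.185% fell, and none was called by DESeq2 or limma. At an unadjusted p below 0.05 there were 2 members, Cd14 and Tlr7, against 18.3% of all tested genes. Cd14 averaged 10.7 ± 2.14 FPKM after light and 19.0 ± 7.36 FPKM without it, a log2 fold change of -0.84 (95% confidence interval -1.44 to -0.25, adjusted p = 0.148). Tlr7 averaged 1.31 ± 0.0858 and 2.48 ± 0.754 FPKM, a log2 fold change of -0.71 (-1.18 to -0.23, adjusted p = 0.137). Tlr7 was the only member with every light-treated library below every untreated one, as were 3.98% of the genes past the filter. Without untreated replicate 1 the differences were -0.52 for Cd14 (adjusted p = 0.282) and -0.56 for Tlr7 (adjusted p = 0.238).

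Of the other members, Tlr2 had a log2 fold change of -0.67 (95% confidence interval -1.56 to 0.23, adjusted p = 0.407), which was -0.11 without untreated replicate 1. Tlr13 was at -0.30 (-0.88 to 0.27), Myd88 at -0.23 (-0.71 to 0.25) and Tlr3 at -0.14 (-0.46 to 0.17). With no filter none of the 4 remaining members was called (0.310% of genes rose and 0.202% fell), with Tlr4 at -0.72 (-1.42 to -0.03, adjusted p = 0.316), Tlr1 at -0.35 (-1.11 to 0.42), Tlr9 at -0.32 (-1.37 to 0.73) and Tlr6 at 0.0011 (-0.81 to 0.81). The intervals of Tlr2, Tlr13, Myd88, Tlr3, Tlr1, Tlr9 and Tlr6 included 0, and their lower ends differed. As a percent of the microglial marker sum, Cd14 (1.67 ± 0.25% untreated, 1.16 ± 0.171% after light) and Tlr7 (0.220% and 0.145%) were lower in every light-treated library than in any untreated one, where 0.693% of the genes past the filter were. None of the 10 microglial markers passed the test between these groups (median log2 fold change -0.21, all genes -0.02). Choroid plexus markers were at a summed 270 to 3417 FPKM in untreated and 101 to 316 FPKM in light-treated 5xFAD mice, with 0 of 4 called, and their part in these differences was not tested.

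Against WT, light-treated 5xFAD mice still had higher Tlr2 (log2 fold change 2.83, SE 0.48, 7.09-fold, adjusted p = 0.00334), Cd14 (1.99, SE 0.30, 3.98-fold, adjusted p = 0.00125) and Tlr13 (1.24, SE 0.28, 2.37-fold, adjusted p = 0.0216), and 3.05% of all tested genes rose. With no filter Tlr1 rose by 2.61 (6.10-fold, adjusted p = 0.00137) and Tlr6 by 2.09 (4.25-fold, adjusted p = 0.0129), where 2.15% of genes rose. Their summed counts rose by 2.42 (adjusted p = 0.000165). The call for Tlr13 was lost without WT replicate 2, 3 or 4 or light-treated replicate 3 or 4 (adjusted p = 0.0611 to 0.0748), and that for Tlr6 without WT replicate 1 or 3 or light-treated replicate 4 (adjusted p = 0.0516 to 0.057). Tlr7 (0.66, adjusted p = 0.152), Myd88 (0.47, adjusted p = 0.318), Tlr4 (0.76, adjusted p = 0.324), Tlr9 (0.89, adjusted p = 0.45) and Tlr3 (0.01, adjusted p = 0.983) did not pass. This comparison uses the same WT libraries as that of untreated 5xFAD mice, in which the log2 fold changes were 3.49 for Tlr2, 2.84 for Cd14, 1.55 for Tlr13 and 1.36 for Tlr7. The FPKM ranges were apart from WT for 6 of the 10 genes (Tlr1, Tlr2, Tlr6, Tlr13, Cd14 and Myd88). Among the 6 members past the filter there were 4, and 7.33% of all genes past the filter were apart in this direction. Because Tlr2 and Tlr13 passed it only through 5xFAD libraries, neither this count nor that of calls is read against the share of all genes. Tlr7 overlapped WT in FPKM, while in counts scaled to library size (CPM) it lay at 4.82 to 5.48 after light and at 2.23 to 4.57 in WT.

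**Figure D3:**
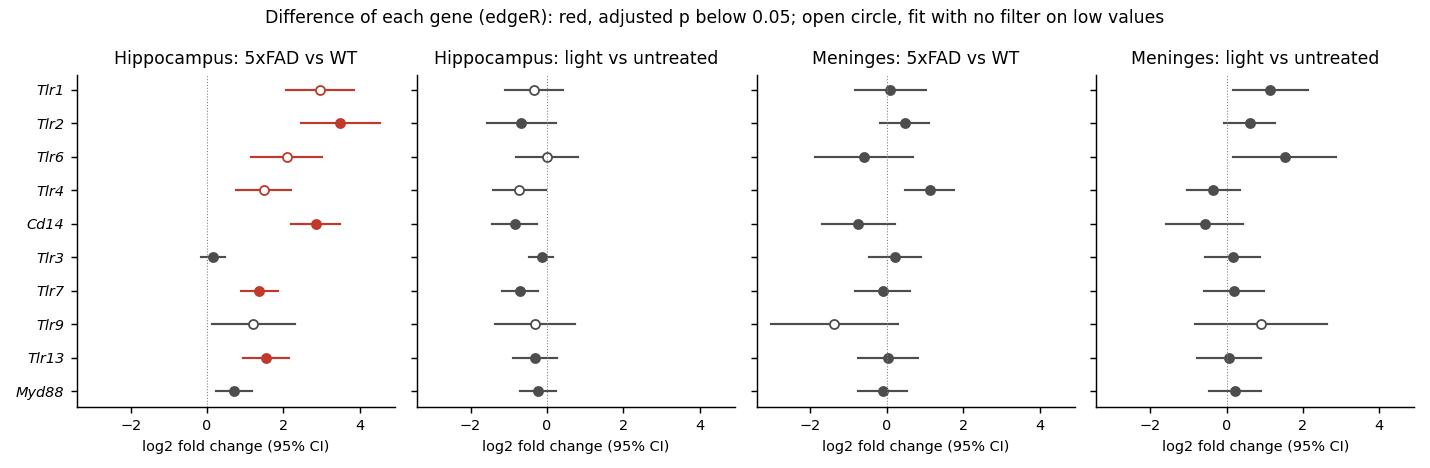
Log2 fold changes of the 10 genes with 95% confidence intervals in hippocampus and meninges, for untreated 5xFAD against WT and for light-treated against untreated 5xFAD mice, with red for an adjusted p below 0.05 and open circles for genes tested with no filter on low values. Red points are found only in the panel of untreated 5xFAD against WT hippocampus, led by Tlr2 at 3.49, Tlr1 at 2.96 and Cd14 at 2.84.

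Other genes of the pathway were followed in 77 genes sorted by role, 54 of which were tested in hippocampus. In untreated 5xFAD mice 20 of the 54 rose and 2 fell, where 6.48% of all tested genes rose and 2.06% fell. Cd180, Irf7, Ccl3, Ccl4, Cxcl10 and Socs3, with WT means of 0.115 to 0.522 FPKM, could reach the filter only with 5xFAD libraries, so these counts and those by role are not read against that background. Among receptor partners, 3 of the 7 tested rose and none fell (median log2 fold change 0.77). They were the TLR4-like receptor Cd180 (2.63, 6.19-fold, adjusted p = 6.48e-05), its partner Ly86 (2.38, 5.21-fold, adjusted p = 0.000939) and Unc93b1, which carries endosomal receptors to their compartment (1.53, 2.88-fold, adjusted p = 0.000331). Adaptors and proximal kinases had 3 of 17 higher and 1 lower (median 0.21), namely Pik3ap1 (1.87), the kinases Btk (1.31) and Irak4 (1.16), and the ubiquitin ligase Traf6 (-0.59, adjusted p = 0.0448). Of 7 negative regulators tested, only the deubiquitinase Cyld passed, and it fell (-0.40, adjusted p = 0.0185).

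Downstream, 5 of 8 transcription factors rose (median 0.74). Irf7, an inducer of type I interferon, rose by 3.52 on the log2 scale (11.5-fold, adjusted p = 0.000109), Irf8 by 2.53 (5.76-fold), Irf5 by 1.62 and Nfkb1 by 0.81 (adjusted p = 0.0382). Of 20 NF-kB target genes 9 were tested, 7 rose and none fell (median 2.22). The chemokines led, with Ccl3 at 0.115 FPKM in WT and 7.90 FPKM in untreated 5xFAD mice (log2 fold change 5.99, adjusted p = 0.000136), Ccl4 at 0.285 and 7.05 FPKM (4.58) and Cxcl10 at 0.418 and 9.52 FPKM (4.45). Socs3, a feedback inhibitor of cytokine signalling, rose by 3.18 (adjusted p = 0.00756), with untreated 5xFAD libraries spread from 1.49 to 10.9 FPKM. The classical cytokines Tnf and Il1b stayed at or below a mean of 0.643 FPKM in every hippocampal group and were not tested. Il1a, another cytokine of the list, was tested, and DESeq2 called it in both untreated and light-treated 5xFAD mice against WT. Of the endogenous TLR ligands, S100a8 (2.40, adjusted p = 0.0399) and the proteoglycan Bgn (1.44, adjusted p = 0.0241) rose, 2 of 6 tested. The calls near the threshold were the least stable, and over 16 alternatives each those for Nfkb1, Traf6 and S100a8 were lost in 11, 9 and 9. The TLR genes outside the set stayed low, with Tlr8 at 0.252 FPKM and Tlr12 at 0.842 FPKM on average in untreated 5xFAD mice.

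Between light-treated and untreated 5xFAD hippocampi none of the 54 pathway genes was called by edgeR or limma. DESeq2 called 3, the ER chaperone Hsp90b1, the NF-kB inhibitor Nfkbia and Socs3. Over all 12981 genes it called 356 higher and 285 lower. At an unadjusted p below 0.05 by edgeR there were 16, against 18.3% of all tested genes. The limit from the filter holds here too, so neither count is read against all genes. Ccl3 averaged 12.9 FPKM and Ccl4 10.7 FPKM after light, against 7.90 and 7.05 FPKM without it, whereas Irf7 averaged 2.85 and 5.30 FPKM and Cxcl10 5.30 and 9.52 FPKM. Against WT, 12 of the 54 rose and 1 fell in light-treated mice, where 3.05% of all tested genes rose and 0.539% fell, with the same limit from the filter. These included Ccl3 (6.68), Ccl4 (5.17), Cd180 (2.76), Irf7 (2.63) and Irf8 (2.20), and the one that fell was Nfkbia (-0.86, adjusted p = 0.0335).

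The genes whose levels were most like Cd14 over the 12 hippocampi, by Pearson r of log2(FPKM + 1), were Tmem176b (r = 0.986), Clu (0.985) and Tcn2 (0.981). Those most like Tlr2 were Aspg (0.979), Nckap1l (0.975) and Cd9 (0.974). Among the 5 other members past the filter, r with Cd14 was 0.950 for Tlr13, 0.937 for Tlr2, 0.760 for Myd88, 0.750 for Tlr7 and 0.338 for Tlr3. The 12 libraries include both genotypes, so a shared genotype difference is part of each r. Around the group means, r with Cd14 was 0.859 for Tlr13, 0.628 for Tlr7, 0.588 for Tlr2, 0.462 for Myd88 and -0.176 for Tlr3.

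In WT mice the meninges held more of most receptors than the hippocampus. Of 9 members tested over 15132 genes, 8 were higher in meninges, where 39.9% of all tested genes were higher and 33.2% lower (median log2 fold change 0.12). Tlr1, Tlr4 and Tlr6 reached the filter only with meningeal libraries, so this number is not read against that share. Cd14 averaged 37.7 ± 22.0 FPKM in WT meninges and 2.68 ± 1.02 FPKM in WT hippocampus (log2 fold change 3.74, SE 0.43, 13.3-fold, adjusted p = 1.53e-07). Myd88 was 4.97-fold higher (2.31, adjusted p = 1.62e-07), Tlr1 7.02-fold, Tlr2 5.96-fold, Tlr6 4.61-fold, Tlr4 3.80-fold, Tlr7 2.07-fold and Tlr13 2.06-fold. With no filter Tlr9 was 3.15-fold higher (adjusted p = 0.0157), where 35.5% of genes were higher. Tlr3 was the exception at -0.21 (95% confidence interval -0.66 to 0.25, adjusted p = 0.399). In the same comparison 6 of 6 border-associated macrophage markers (median 5.61) and 7 of 8 monocyte and neutrophil markers (median 8.72) were higher, with microglial markers at a median of -0.01, and their part was not tested.

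Untreated 5xFAD meninges did not show the hippocampal pattern. No member of the 9 tested was called by edgeR, DESeq2 or limma, as was none (0%) of 14318 genes by edgeR. Tlr4, the only member with an unadjusted p below 0.05 (4.01% of all genes), was at 1.54, 1.28, 1.92 and 1.2 FPKM in WT and at 4.05, 2.47 and 3.41 FPKM in untreated 5xFAD mice. These ranges were apart, and the log2 fold change was 1.12 (SE 0.30, 2.18-fold, adjusted p = 0.987). Tlr2, with 3.9, 3.62, 2.3 and 2.03 FPKM in WT and 3.94, 3.98 and 4.4 FPKM in untreated 5xFAD mice, was the other member with ranges apart in this direction, as were 2.19% of all genes past the filter. Its log2 fold change was 0.47. Cd14 scattered widely, at 65.7, 18.14, 22.2 and 44.56 FPKM in WT and 10.25, 31.02 and 25.39 FPKM in untreated 5xFAD mice (-0.75, 95% confidence interval -1.70 to 0.21).

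The lipopeptide receptors had their highest meningeal means after light. Tlr1 was at 1.76, 2.88 and 1.88 FPKM, against 0.63, 0.97 and 1.36 FPKM untreated and 0.78, 0.89, 0.87 and 1.15 FPKM in WT. Tlr2 was at 6.79, 5.24 and 6.53 FPKM, above every untreated and WT value. For these 2 genes the light-treated and untreated ranges were apart, as in 10.1% of all genes in this direction. The log2 fold changes against untreated 5xFAD mice were 1.14 for Tlr1 (SE 0.45, adjusted p = 0.341), 1.53 for Tlr6 (SE 0.62, adjusted p = 0.349), 1.25 for their summed counts (adjusted p = 0.285) and 0.60 for Tlr2 (adjusted p = 0.433). No member was called by edgeR, DESeq2 or limma, and 0.0140% of all genes were called by edgeR. At an unadjusted p below 0.05 there were 2 members, Tlr1 and Tlr6, with 12.7% of all genes. Both reached the filter only with light-treated libraries, so neither their number nor that of ranges apart is read against those shares. Light-treated replicate 1 had the highest monocyte and neutrophil marker sum, 6861 FPKM against 542 to 2869 FPKM elsewhere. Without it the values were 1.23 for Tlr1, 1.23 for Tlr6 and 0.48 for Tlr2.

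Against WT, light-treated meninges gave Tlr2 a log2 fold change of 1.07 (SE 0.29, adjusted p = 0.144), Tlr1 1.23 (adjusted p = 0.186), Tlr4 0.78 (adjusted p = 0.231) and Cd14 -1.32 (SE 0.45, adjusted p = 0.188), with 4 of 9 members and 16.4% of all genes at an unadjusted p below 0.05. Cd14 was at 16.72, 16.6 and 11.94 FPKM after light, below every WT library, as were 5.34% of all genes. Tlr1, Tlr2 and Tlr4 were above every WT library, as were 6.99%. Tlr1 reached the filter only with light-treated libraries, so the counts that include it are not read against 16.4% or 6.99%. Myd88 averaged 21.4 ± 7.47, 20.3 ± 5.75 and 23.0 ± 2.40 FPKM in WT, untreated and light-treated meninges, and the FPKM of Tlr3, Tlr7, Tlr9 and Tlr13 overlapped between light-treated mice and each other group. None of the 67 pathway genes tested in meninges was called by edgeR or limma in any of the comparisons. DESeq2 called 3 in light-treated mice against WT, the chemokine Cxcl2 and the NF-kB regulators Nfkbia and Nfkbiz. Over all 14318 genes it called 139 higher and 299 lower in that comparison, so the 3 are not read as a result about the pathway.

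**Figure D4:**
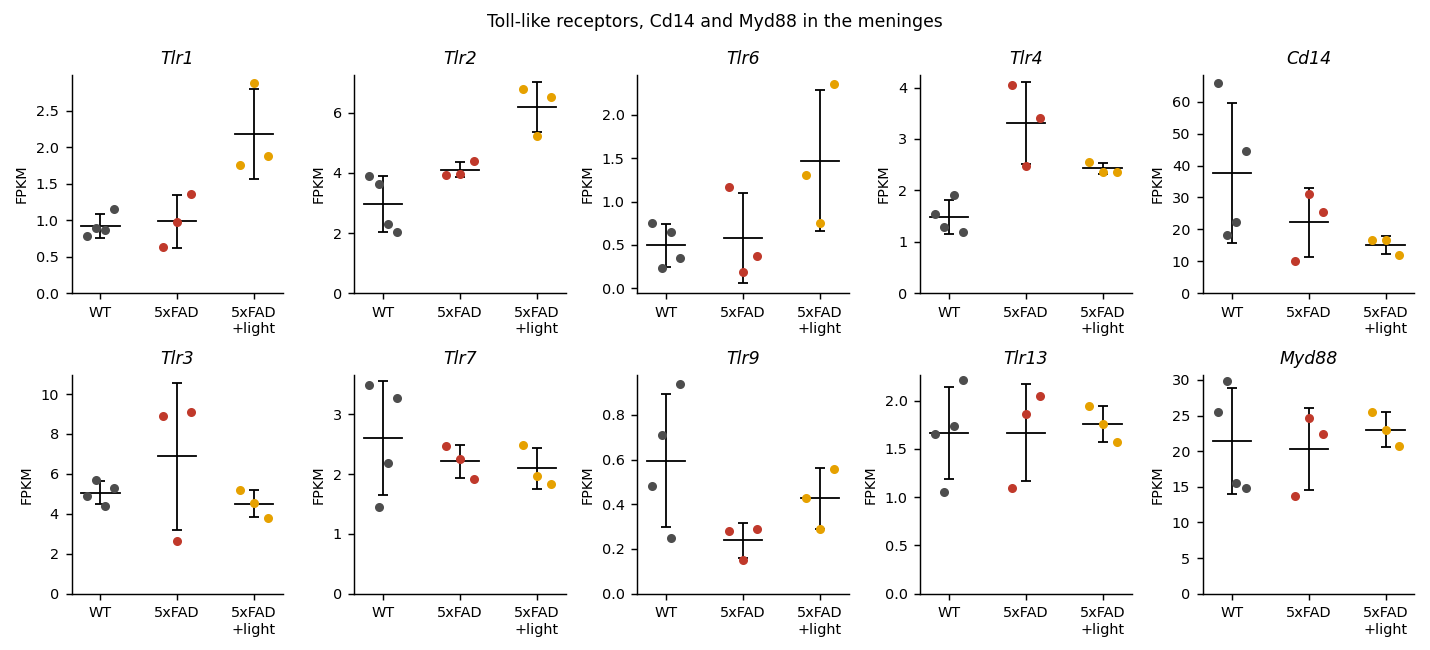
FPKM of the 10 genes in meninges, 1 panel per gene, with a point for each library and a black line for the mean ± SD in WT (n = 4), 5xFAD (n = 3) and 5xFAD+light (n = 3) mice. Tlr2 lies at 2.03 to 3.9 FPKM in WT and 5.24 to 6.79 FPKM after light, and Cd14 in WT spreads from 18.14 to 65.7 FPKM.

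The difference between the tissues was tested directly, as the genotype difference in meninges minus that in hippocampus. It was negative and called for 5 of 9 members, where 1.67% of all genes were called lower and 0.0727% higher. Tlr6 reached the filter only with untreated and light-treated 5xFAD meninges, and Tlr1 largely with 5xFAD libraries, so the count is not read against these shares. The values were -3.59 for Cd14 (SE 0.59, adjusted p = 0.00219), -3.02 for Tlr2 (SE 0.60, adjusted p = 0.00843), -2.88 for Tlr1 (SE 0.57, adjusted p = 0.00795), -2.73 for Tlr6 (SE 0.65, adjusted p = 0.0316) and -1.49 for Tlr7 (SE 0.38, adjusted p = 0.0435). Summed counts of Tlr1 and Tlr6 gave -2.78 (SE 0.38, adjusted p = 0.000435). Tlr13 (-1.51, adjusted p = 0.0881) and Myd88 (-0.81, adjusted p = 0.369) did not pass. Tlr4, which was higher in 5xFAD mice in both tissues by its ranges, was at -0.39 (95% confidence interval -1.29 to 0.51, adjusted p = 0.767). Without hippocampal untreated 5xFAD replicate 1 the calls for Tlr6 (-2.66, adjusted p = 0.0663) and Tlr7 (-1.35, adjusted p = 0.11) were lost, and those for Cd14 (-3.28), Tlr2 (-2.47) and Tlr1 (-2.75) were not. Other omissions also ended calls. For Tlr6 they were hippocampal WT replicates 1, 3 and 4, hippocampal 5xFAD replicates 3 and 4, meningeal WT replicates 1 and 3 and meningeal 5xFAD replicates 1 and 2 (adjusted p = 0.0539 to 0.0781). For Tlr7 they were hippocampal WT replicates 2, 3 and 4, hippocampal 5xFAD replicate 4, meningeal WT replicates 1 and 4 and meningeal 5xFAD replicates 1 and 2 (adjusted p = 0.0628 to 0.119).

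Pathway genes had 11 of 69 called lower in this contrast and none higher, where 1.67% of all genes were called lower and 0.0727% higher. Among the 11 were Ccl3 (-6.62), Irf7 (-3.87), Irf8 (-2.77), Ly86 (-2.41) and Cd180 (-2.30). Microglial markers had 5 of 10 called lower and none higher (median -1.19, all genes -0.11), and their part was not tested. How far the filter shaped these counts was not examined, so they are not read against the shares of all genes. The matching contrast for light called none of the 9 members by edgeR, DESeq2 or limma, with 4 at an unadjusted p below 0.05, against 19.8% of all genes. Tlr6, among the 4, reached the filter only with light-treated meninges, so that number is not read against this share. Over all genes 0.245% were called higher and 0.806% lower. Its lowest adjusted p was 0.151, for Tlr1 (1.47), and the summed counts of Tlr1 and Tlr6 gave 1.46 (adjusted p = 0.0538).

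In sorted mLECs, 5 of the 10 members had no count. Of all 22337 genes, 13443 had a count in at least 1 mLEC library, so genes without any count were common. Per library, 5998 to 9020 genes were detected. Tlr1, Tlr6, Tlr7, Tlr9 and Tlr13 had no count in any of the 10 libraries, where 3 counts, taken as the limit for a count of 0 in each library, correspond to 0.124 to 0.211 CPM. That limit covers counting error only, and amplified reads are not independent molecules. Pdpn, which the sort selected for, was itself at 0 in 4 of the 10 libraries. The leukocyte gene Ptprc was also at 0 in all 10 libraries, and Itgam, which encodes CD11b, reached at most 0.02 FPKM. Tlr2 was at 0, 0, 9.89 and 0 FPKM in WT, at 0, 13.37 and 0.04 FPKM in untreated 5xFAD and at 14.19, 0.01 and 9.52 FPKM in light-treated 5xFAD mice. It was thus present in some libraries of each group and absent from others. Tlr4 reached 3.62 FPKM and Tlr3 4.79 FPKM at most, each with zeros in every group and Tlr3 at 0 in all WT libraries.

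Cd14 and Myd88 were the abundant members in mLECs. Cd14 was at 0.03, 0.14, 20.53 and 292.24 FPKM in WT, at 116.01, 92.14 and 57.98 FPKM in untreated 5xFAD and at 106.13, 17.78 and 130.8 FPKM in light-treated 5xFAD mice. WT replicates 1 and 2 rested on 1 and 4 counts, and WT replicate 4, with 11706 counts, was a library with few lymphatic markers. Myd88 was at 67.27, 38.53, 264.62 and 0 FPKM in WT, at 106.97, 75.28 and 116.94 FPKM in untreated 5xFAD and at 64.73, 40.41 and 64.82 FPKM after light. All light-treated values of Myd88 were below all untreated ones, as in 6.58% of the genes past the filter.

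None of the 4 members tested was called by edgeR, DESeq2 or limma in any mLEC comparison, and none had an unadjusted p below 0.05, against 3.81%, 4.01% and 6.72% of all genes for genotype, light against untreated and light against WT. Among all 8188 genes, edgeR called 0%, 0% and 0.0122% in the same order. The log2 fold changes for genotype were 0.20 for Cd14 (SE 1.75, adjusted p = 1) and -0.06 for Myd88 (SE 1.47, adjusted p = 1), for light against untreated -0.09 and -0.79, and for light against WT 0.11 and -0.85. Tlr3, tested with no filter, had an unadjusted p of 0.0441 (adjusted p = 0.547) for light against WT, and no fold is given since WT was at 0. The large SEs mean that differences of several-fold were not detectable with these libraries. Without WT replicates 2 and 4 the genotype value of Cd14 was 3.05 (SE 1.85, adjusted p = 1), that of Myd88 -0.85 (SE 0.72), that of Tlr2 -0.23 (SE 3.72) and that of Tlr4 -0.40 (SE 3.94). For light against WT the values without them were 2.96 for Cd14 (SE 1.84, adjusted p = 0.822), -1.65 for Myd88 (SE 0.73, unadjusted p = 0.0443, adjusted p = 0.804), 0.56 for Tlr2 and 0.02 for Tlr4. With all WT libraries, Tlr2 was at 0.74 and 1.51 and Tlr4 at 0.54 and 0.97 in these comparisons. None of the 47 pathway genes tested was called by edgeR or limma, and DESeq2, run with all WT libraries only, called the NF-kB inhibitor Tnfaip3 in untreated 5xFAD mice against WT. Over all 8188 genes DESeq2 called 79 higher and 106 lower there.

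**Figure D5:**
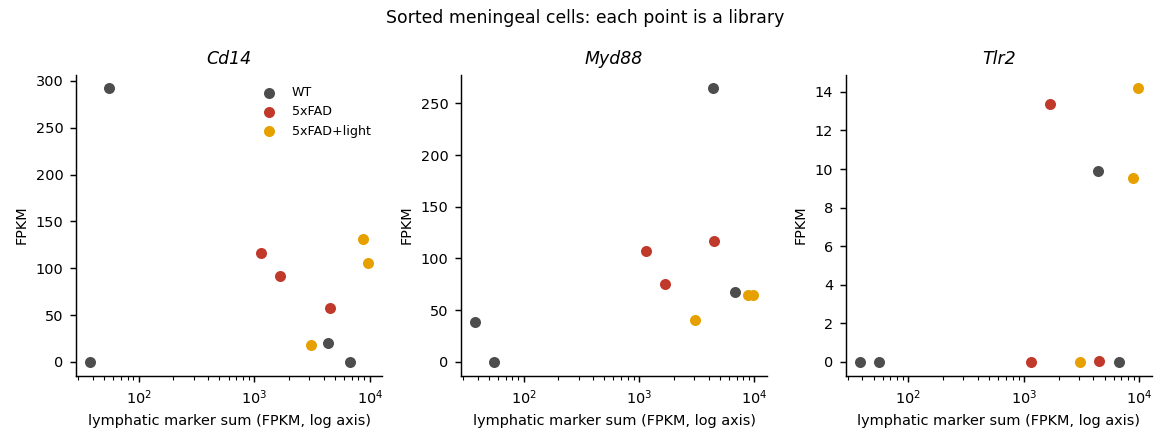
FPKM of Cd14, Myd88 and Tlr2 in sorted mLECs against the summed FPKM of 6 lymphatic endothelial markers on a log axis, with a point for each of the 10 libraries, coloured by group. WT replicates 2 and 4 lie far to the left, at 37.97 and 55.71 FPKM, and the latter carries the highest Cd14, 292.24 FPKM.

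Over all 9 groups the order of mean levels differed by gene. Cd14 was lowest in WT hippocampus, and the next group up, light-treated 5xFAD hippocampus, did not overlap it, while all higher neighbours in its order overlapped each other. Myd88 ranked by tissue, with mLECs highest (means of 56.7 to 99.7 FPKM), meninges next (20.3 to 23.0 FPKM) and hippocampus lowest (4.11 to 6.69 FPKM). The mLEC values come from a separately normalized table and were set beside the others without a test.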

How the data were processed

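Hippocampus and meninges were sequenced from 6-month-old WT, 5xFAD and light-treated 5xFAD mice, and sorted mLECs likewise, in 32 libraries, grouped by the labels. The authors deposited expected counts and FPKM per gene, in one table for hippocampus and meninges and another for mLECs. The study's methods name fastp and RSEM, and the submitters' processing notes name Trimmomatic, HISAT2, StringTie, DESeq2 and mm10. No column lacked a sample. Of 22337 gene IDs, 22232 were in GENCODE vM21.

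The test was edgeR 4.0.16 on expected counts rounded to whole numbers (R 4.3.3, TMM, quasi-likelihood, all groups of a tissue in 1 fit, genes with FPKM of at least 1 in at least 3 libraries, Benjamini-Hochberg over all genes). For contrasts between tissues, all hippocampal and meningeal libraries were fitted together. A member under the filter was tested in the fit with no filter. Rounding can shift Tlr1 and Tlr6, whose shared reads were split. Alternatives were DESeq2 1.42.0, median-of-ratios scaling, limma 3.58.1 on log2(FPKM + 1) or log2(FPKM + 0.1), other filters, the compared groups alone, a replicate block and leaving out each library. Summing Tlr1 and Tlr6, leaving out libraries with no filter, and leaving out WT mLEC replicates 2 and 4 were added after seeing the data.

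The members and lists were chosen with earlier results of these data known. Named were the 10 members, up to 4 genes with the largest called change per pathway list and comparison, and the 3 genes most like Cd14 or Tlr2. A few uncalled or DESeq2-only genes (Tnf, Il1b, Tlr8, Tlr12, Hsp90b1, Nfkbiz, Cxcl2 and Tnfaip3), and Il1a, were named after their values were seen. No 2 libraries of a group agreed within sampling noise (lowest chi-square per degree of freedom 9.245). The FPKM filter favours genes high in the larger groups, and CPM (counts scaled to library size) and FPKM can differ for Tlr3, Tlr6 and Tlr7, whose effective lengths varied between libraries. Tests were tried on simulated data.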

Additional observations from a re-analysis of the deposited data

Results flagged for a closer look

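In untreated 5xFAD hippocampus, Tlr2 of replicate 1 was at 10.01 FPKM, far from the other 3 libraries at 3.26 to 3.87 FPKM. In sorted WT mLECs, Cd14 of replicate 4 was at 292.24 FPKM, against 0.03 to 20.53 FPKM in the other 3. These were the 2 outlying libraries among 41 groups of 4 libraries tested by the gap to the nearest library over the whole range, where chance alone flags about 1 in 20 groups. The genotype difference in meninges differed from that in hippocampus for 5 members by a test of the difference itself, by -2.88 for Tlr1, -3.02 for Tlr2, -2.73 for Tlr6, -1.49 for Tlr7 and -3.59 for Cd14 on the log2 scale.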

How the results depend on the processing

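Counts of called members moved by more than 1.5-fold in 3 contrasts. With no filter on low values they were 7 instead of 4 for untreated 5xFAD against WT hippocampus and 5 instead of 3 for light-treated 5xFAD against WT. For the genotype difference between tissues (5 called) they were 3 with no filter, 3 with a mean FPKM of at least 1, 2 with limma on log2(FPKM + 1), 3 with limma on log2(FPKM + 0.1) and 3 to 5 when single libraries were left out, with 3 without hippocampal WT replicate 3 or 4, hippocampal 5xFAD replicate 1 or 4, meningeal WT replicate 1 or meningeal 5xFAD replicate 1 or 2. Among 26 called member results, 18 kept their call in every alternative and 39 of 378 alternative values lost it. None of these reversed. Among 64 results that were not called, 55 of 914 values changed sign and 3 passed the threshold. Calls lost with limma on log2(FPKM + 1) included those for Tlr13 in light-treated hippocampus against WT (0.66, adjusted p = 0.055), for Tlr1 in the genotype difference between tissues (-0.75, adjusted p = 0.14) and for Tlr6 in WT meninges against WT hippocampus (0.41, adjusted p = 0.0747). Not every call lost in the genotype difference is named here. DESeq2 called Tlr13 in the genotype difference (-1.49, adjusted p = 0.035). Of 41 called pathway results, 28 kept their call throughout. The cause was not tested.

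Signs changed for these uncalled values. Tlr3 in light-treated hippocampus against WT was -0.01 with no filter. With limma on log2(FPKM + 1) and then on log2(FPKM + 0.1), values were 0.04 and 0.01 for Tlr6 in untreated 5xFAD against WT meninges, -0.38 and -0.41 for Tlr3 and -0.06 and -0.08 for Tlr7 in light-treated against untreated meninges, -0.14 and -0.17 for Tlr3 and -0.18 and -0.23 for Tlr7 in light-treated meninges against WT, 0.14 and 0.17 for Tlr3 between WT tissues, -0.03 and -0.08 for Tlr3 in the genotype difference and -0.13 and -0.12 for Tlr3 in the light difference between tissues. Tlr4 in the genotype difference was 0.24 with limma on log2(FPKM + 1).

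Leaving out single libraries gave ranges that crossed 0. In light-treated against untreated hippocampus they were -0.43 to 0.04 for Tlr13, -0.38 to 0.06 for Myd88 and -0.23 to 0.17 for Tlr6 with no filter, and -0.08 to 0.08 for Tlr3 against WT. In untreated 5xFAD against WT meninges they were -0.21 to 0.32 for Tlr1, -0.13 to 0.49 for Tlr3, -0.23 to 0.12 for Tlr7, -0.15 to 0.26 for Tlr13 and -0.27 to 0.11 for Myd88. In light-treated against untreated meninges they were -0.12 to 0.51 for Tlr3 and -0.17 to 0.25 for Tlr13. Against WT they were -0.04 to 0.31 for Tlr7, -0.09 to 0.26 for Tlr13 and -0.05 to 0.31 for Myd88. Between tissues they were -0.31 to 0.35 for Tlr3 in the genotype difference, and -0.02 to 0.65 for Tlr3 and -0.11 to 0.54 for Cd14 in the light difference.

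Over all genes, DESeq2 called 1078 higher and 643 lower in untreated 5xFAD against WT hippocampus (edgeR 841 and 267), 356 and 285 in light-treated against untreated (35 and 24) and 628 and 245 in light-treated against WT (396 and 70). In meninges it called 22 and 57 for light-treated against untreated and 139 and 299 against WT (edgeR 0 and 2 in each). In mLECs it called 79 and 106 for genotype, 87 and 270 for light-treated against untreated and 104 and 360 for light-treated against WT (edgeR 0, 0 and 1 in all). Between tissues it called 69 and 468 and 268 and 464 for the genotype and light differences (edgeR 11 and 252, and 37 and 122). Without hippocampal untreated 5xFAD replicate 1, edgeR called 673 and 137 genes for genotype and 5 and 20 for light.

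Within a tissue, libraries of different groups with the same replicate number did not deviate together (correlations of -0.28 to 0.09 in hippocampus, -0.31 to 0.244 in meninges and -0.033 to 0.012 in mLECs), so the number was not used to pair groups. Whether hippocampus and meninges of the same number came from the same mouse was not examined. The main contrasts between tissues treat all libraries as independent. With a replicate block, called members were 4, 0 and 3 in the hippocampal comparisons, 8 between WT tissues and 4 for the genotype difference, where Tlr6 was lost (-2.46, adjusted p = 0.102), and 668 and 172 genes were called in untreated 5xFAD against WT hippocampus. The block turned Tlr7 (-0.01) and Myd88 (-0.0047) in light-treated meninges against WT and Tlr3 in the genotype difference (-0.09).

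Low counts limit Tlr1, Tlr4, Tlr6 and Tlr9 in hippocampus, and the spread between mLEC libraries limits every comparison there.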

Other observations

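The CPM of a gene (its count scaled to library size) divided by its FPKM reflects the effective length used for it. In hippocampus this ratio was nearly constant for Cd14 (1.67 to 1.69), Tlr2 (3.06 to 3.10) and Tlr13 (4.11 to 4.17), and it varied for Tlr3 (1.86 to 3.09) and Tlr7 (1.99 to 3.92). Tlr7 had 109, 51, 46 and 43 expected counts in the 4 WT hippocampi beside 1.73, 0.74, 1.57 and 0.57 FPKM, so the order of these libraries differed between both scales. In meninges the ratio ran from 1.10 to 3.91 for Tlr6 and from 1.44 to 3.88 for Tlr3.

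B cell markers in meninges summed to 47.9 ± 14.1 FPKM in light-treated 5xFAD mice, to 24.1 ± 0.463 FPKM in untreated 5xFAD mice and to 24.4 ± 6.63 FPKM in WT mice. T cell markers in hippocampus reached 46.2 FPKM in untreated 5xFAD replicate 3. The other untreated 5xFAD libraries were at 3.84, 3.26 and 0.86 FPKM, and all WT and light-treated libraries at 0.73 to 2.27 FPKM. These sums were not tested.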
